A study of Mus musculus with 6 samples.

Results

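The heat shock chaperones of the cytosol and mitochondria were followed in 6 mouse mammary tumours measured on Illumina bead arrays, as 10 listed genes: Hspa1a, Hspa1b, Hspa8, Hsp90aa1, Hsp90ab1, Hsph1, Dnajb1, Hspb1, Hspd1 and Hspe1. The members were all probes whose annotated gene symbol is one of these 10. This gave 18 of the 45281 probes and 9 of the 19057 named genes. No probe carried the name of Hsp90ab1, the constitutive cytosolic Hsp90, under its current or older symbols, so it was not analysed here. The mice were FVB females, 12 weeks of age. All 6 carried the PyMT transgene, which puts the middle T oncogene of polyomavirus under the control of a mouse mammary tumour virus promoter, active in mammary epithelium. The 3 tumours labelled PyMT control carried PyMT alone. The 3 labelled PyMT/ETP (PyMT/C5) also carried an endotrophin transgene. Endotrophin is a fragment of the collagen VI alpha 3 chain, and the labels name no promoter for its transgene. Whether the arrays of a group came from different mice is not stated in the labels, so the tests measure only how far these samples differed among themselves, which may be technical spread.

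Heat shock proteins bind unfolded or partly folded polypeptides and keep them from aggregating. Hsp70 proteins work in cycles of ATP hydrolysis started by J-domain partners and ended by nucleotide exchange factors, and hand some clients on to Hsp90. In the mitochondrial matrix the Hsp60 chaperonin, with its Hsp10 lid, encloses imported proteins while they fold. Stress-inducible members are switched on by the heat shock factor HSF1, which binds alternating repeats of 5 bases in their promoters, and tumour cells often hold these chaperones at high levels. In whole-tumour RNA, fewer cells of a type and less RNA per cell cannot be told apart.

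Promoter sequences are shown for the genes that share a promoter stretch or have nearly identical promoters. They were taken from RefSeq (GRCm38.p6), which held windows for 7 of the 10 genes and for none of Hspa8, Hsp90aa1 and Hsp90ab1. Hspd1 and Hspe1 lie head to head on chromosome 1 (Hspd1 at chr1:55077833-55088243 on the minus strand, Hspe1 at chr1:55088148-55091317 on the plus strand). The 215 bases between the Hspe1 start and the Hspd1 start nearest to the gene body are chr1:55087933-55088147, given here on the plus strand. A second annotated Hspd1 start lies beyond the Hspe1 start. Capitals mark the units of the heat shock motif defined below.
Hspd1-Hspe1 stretch: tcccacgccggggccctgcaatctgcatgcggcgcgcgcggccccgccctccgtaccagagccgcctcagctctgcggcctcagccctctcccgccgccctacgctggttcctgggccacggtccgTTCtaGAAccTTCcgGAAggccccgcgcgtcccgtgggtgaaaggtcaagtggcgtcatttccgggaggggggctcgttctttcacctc

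The inducible Hsp70 genes Hspa1a (chr17:34969359-34972156) and Hspa1b (chr17:34956429-34959238) lie close together on the minus strand of chromosome 17. The 150 bases before each start are chr17:34972157-34972306 for Hspa1a and chr17:34959239-34959388 for Hspa1b, read 5′ to 3′ on the minus strand. These upstream bases differ at 1 of the 150 positions, and at 3 of 250. The transcripts of the genes were not compared.
Hspa1a: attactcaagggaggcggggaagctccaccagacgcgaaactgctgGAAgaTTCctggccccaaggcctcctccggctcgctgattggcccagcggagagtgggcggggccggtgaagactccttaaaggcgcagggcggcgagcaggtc
Hspa1b: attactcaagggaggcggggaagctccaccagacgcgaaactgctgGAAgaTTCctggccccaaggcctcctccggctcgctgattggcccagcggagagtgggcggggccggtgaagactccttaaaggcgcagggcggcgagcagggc

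The motif searched was a pair of facing units, GAANNTTC or TTCNNGAA, each of which reads the same on both strands. The search covered the 250 bases before each start. At least 1 match was found in 7 of the 10 windows of the members, belonging to 6 of their 7 genes, and in 12.8% of all 32851 windows. The member windows are not separate cases. Hspd1 and Hspe1 share their matches, and the windows of Hspa1a and Hspa1b are near copies. Dnajb1 had no match in either of its 2 windows, and Hspd1 had none in the window of its start beyond the Hspe1 start. Hspb1 had 2 matches, beginning 117 and 97 bases before its start, and Hsph1 had 1, beginning 33 or 54 bases before the start depending on the annotated start. A run of 3 units, GAANNTTCNNGAA or TTCNNGAANNTTC on either strand, was held by 0.466% of all windows. Among the members it was found only in the Hspd1-Hspe1 stretch, where 4 units in a row span chr1:55088059-55088076 and belong to the windows of both genes. The matches overlap one another there. They are a description of the letters and not of bound sites.

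Levels are given as log2 intensity, the log2 of the background-corrected deposited intensity plus 16, so the fold changes of dim probes are understated. A probe was tested if its deposited intensity was above 94.1, the limit that 5% of background values would pass, on at least 3 of the 6 arrays. This left 24884 probes and 12860 genes in the series, among them 15 of the 18 chaperone probes and all 9 chaperone genes with a probe. The 3 probes left out were an Hspa1a probe above the limit on 2 arrays, an Hsp90aa1 probe above it on 1 and an Hspb1 probe above it on 0. On the log2 scale the limit is at 4.61. Between 54.6% and 54.7% of all probes lay above it on each array, a consequence of deposited values that had been made equal between arrays. Rank correlations between arrays over all probes were 0.866 to 0.888. All 9 markers of mammary luminal epithelium that were listed, among them the keratins Krt8 and Krt18, were above the limit on all 6 arrays. By group means 7 of these 9 were lower and 2 higher in PyMT/ETP tumours, with a median log2 difference of -0.27. None passed over all genes, 3 were under unadjusted p 0.05, and the groups did not overlap for 4, against 8.19% of all genes. The mean log2 level of the list was 11.21 to 11.48 in control and 11.02 to 11.12 in PyMT/ETP tumours, and its part in the chaperone values was not tested. Genes of skin keratinocytes and hair stood apart in PyMT control replicates 2 and 3: their mean log2 level ran from 5.63 to 8.41 in control and from 5.25 to 5.47 in PyMT/ETP tumours. None of the 9 tested members of that list was higher in PyMT/ETP, and Krt1 was above the limit on no more than 2 arrays. Of these 9, none passed over all genes and 7 were under unadjusted p 0.05 in limma's test, against 4.31% of all genes. The groups did not overlap for 4 of them, against 8.19% of all genes. When either of these control tumours was left out, 0 chaperone probes passed the test below, as with all 6 arrays. The part of the skin and hair genes in the chaperone values was not tested. All 7 tested macrophage markers were higher in PyMT/ETP by group means, with a median log2 difference of 0.24, and none passed. The groups did not overlap for 1 of them. PyMT/ETP replicate 1 stood highest. The mean deviation of the list from its mean over the 6 tumours was 0.37, 0.054 and -0.060 in PyMT/ETP replicates 1, 2 and 3. It was -0.18, -0.059 and -0.12 in control replicates 1, 2 and 3. All 6 endothelial markers were also higher by group means, with a median of 0.14, and none passed. The part of either cell type in the chaperone values was not tested.

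For none of the 9 heat shock chaperone genes with a probe did the endotrophin tumours differ from the controls at the test's threshold. Of the 15 tested probes, 8 were higher and 7 lower in PyMT/ETP by group means, and in all 15 the groups overlapped. Limma's test with Benjamini-Hochberg adjustment passed 0 of the 15 at adjusted p 0.05, with a lowest adjusted p of 0.9997. It passed 0% of all 24884 probes. At unadjusted p 0.05 it called 0 of the 15 chaperone probes, and 4.69% of all probes. The groups did not overlap for 8.91% of all probes. By the brightest tested probe of each gene, 5 chaperone genes were higher and 4 lower, 0 passed at adjusted or unadjusted p 0.05, and 0 had separate groups. Among all 12860 genes 0% passed, 4.31% were called at unadjusted p 0.05 and 8.19% had separate groups. The median log2 difference was 0.00053 over the 9 chaperone genes and 0.0042 over all genes, and the median size of the difference, whatever its sign, was 0.11 and 0.12. An exact permutation test of 3 tumours against 3 cannot give a p below 0.1, and the lowest among the tested chaperone probes was 0.2.

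**Figure D1:**
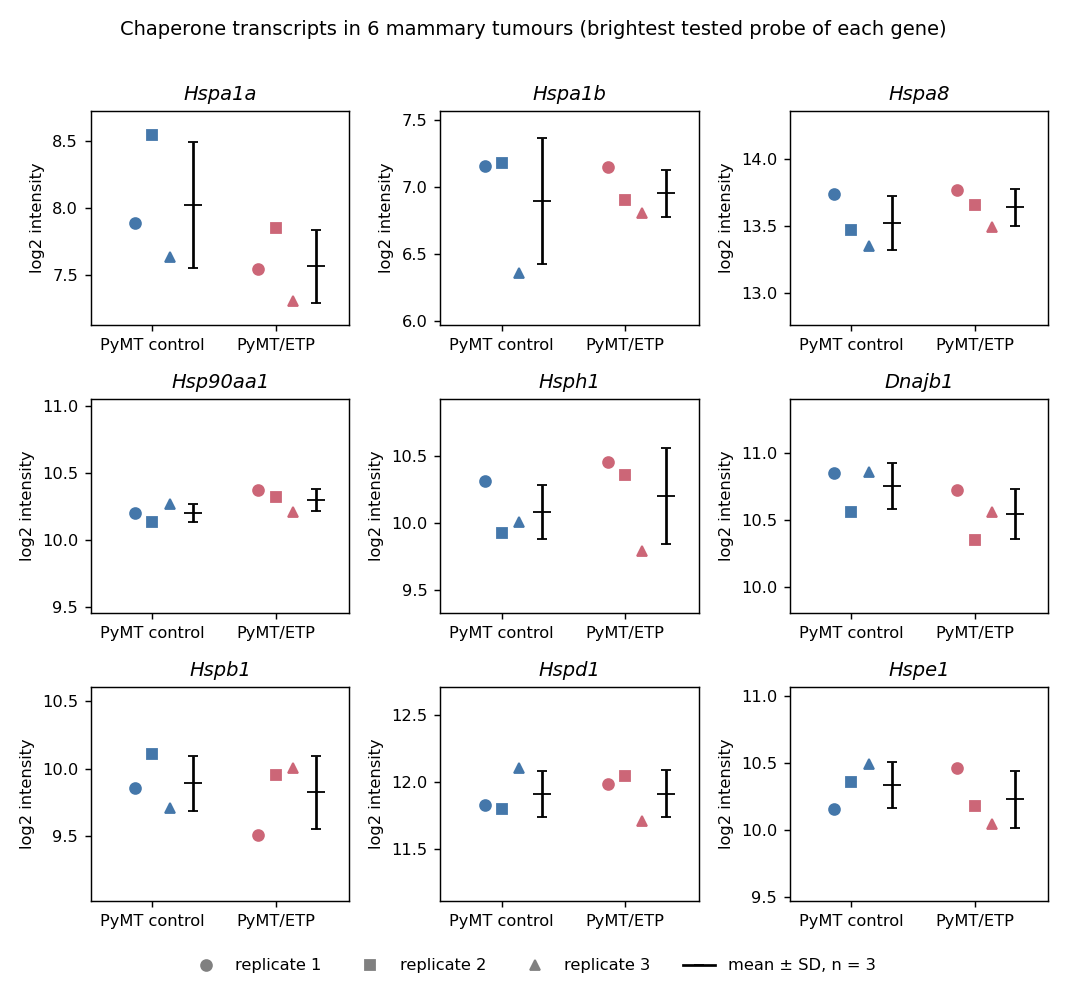
Log2 intensity (vertical axes, each spanning the same number of log2 units) of the brightest tested probe of 9 chaperone genes in 3 PyMT control (blue) and 3 PyMT/ETP (red) tumours; symbols are replicates, black bars mean ± SD (n = 3). The groups overlap in all 9 panels, and the widest separation of means is that of Hspa1a, where PyMT control replicate 2 stands highest at 8.54.

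Hspa1a, which encodes a stress-inducible cytosolic Hsp70, showed the largest difference among the members. Its brightest probe was at 7.89, 8.54 and 7.63 in the control tumours and at 7.54, 7.85 and 7.31 in the PyMT/ETP tumours. Control replicate 2 was the highest and PyMT/ETP replicate 3 the lowest, and PyMT/ETP replicate 2 lay above control replicate 3. The group means were 8.02 ± 0.47 and 7.57 ± 0.27 (SD, n = 3). PyMT/ETP minus control was -0.46 on the log2 scale (SE 0.25). The 95% confidence interval reached from -1.01 to 0.099, or from 0.496-fold to 1.07-fold. The unadjusted p was 0.0965 and the adjusted p 0.9997 in limma's test, and the exact permutation p was 0.2. Without control replicate 2 the difference was -0.20, and without control replicate 3 it was -0.65. In the latter case limma's test gave an unadjusted p of 0.0319 and an adjusted p of 0.9993. The other tested Hspa1a probe was close to background, at 5.46, 4.69 and 5.12 in control and 5.15, 4.97 and 5.23 in PyMT/ETP tumours. It was lowest in control replicate 2, where the brighter probe was highest, and its log2 difference was 0.027 (SE 0.21).

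Hspa1b, the neighbouring inducible Hsp70 gene, encodes a nearly identical protein. Its brightest probe was at 7.16, 7.18 and 6.36 in control and at 7.15, 6.91 and 6.80 in PyMT/ETP tumours. Control replicate 3 was low, and the 3 PyMT/ETP tumours lay between it and control replicate 1. The log2 difference was 0.055 (SE 0.23), with an interval from -0.47 to 0.58. A dimmer Hspa1b probe was at 5.90, 5.21 and 5.72 in control and at 5.44, 5.04 and 5.60 in PyMT/ETP tumours, a difference of -0.25 (SE 0.22). The probe and transcript sequences were not compared here, so which of the 2 transcripts each probe detects was not tested. The values of Hspa1a and Hspa1b are uncertain to that extent.

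Hspa8 encodes Hsc70, the constitutive cytosolic Hsp70, which folds new proteins and uncoats clathrin vesicles. Its brightest probe was at 13.74, 13.47 and 13.35 in control and at 13.77, 13.65 and 13.49 in PyMT/ETP tumours. The groups overlapped, with a log2 difference of 0.12 (SE 0.16) and an interval from -0.25 to 0.49. The other Hspa8 probes gave differences of -0.058 (SE 0.16) and 0.11 (SE 0.16). Their values ran from 12.99 to 13.43 and from 11.47 to 11.89 over the 6 tumours. The Hspa8 probes did not all agree on a direction, and for each the lowest and highest tumours were at most 0.44 log2 units apart.

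The helpers of Hsp70 had differences of opposite sign, and neither passed. Dnajb1 encodes the J-domain protein Hsp40, which delivers clients to Hsp70 and starts its ATPase cycle. It was at 10.85, 10.56 and 10.86 in control and at 10.72, 10.35 and 10.56 in PyMT/ETP tumours. PyMT/ETP replicate 1 lay between the control tumours, PyMT/ETP replicate 3 was level with control replicate 2, and PyMT/ETP replicate 2 was the lowest of the 6. The log2 difference was -0.21 (SE 0.17), with an interval from -0.59 to 0.16. Hsph1 encodes Hsp110, a nucleotide exchange factor of Hsp70 that helps to dissolve aggregates. It was at 10.31, 9.93 and 10.01 in control and at 10.46, 10.36 and 9.79 in PyMT/ETP tumours. The PyMT/ETP group held both the highest values and the lowest, and the difference of 0.12 (SE 0.21) had an interval from -0.34 to 0.59.

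Hsp90aa1, the inducible cytosolic Hsp90, which stabilises kinases and steroid receptors, was the steadiest member. Its brightest probe was at 10.20, 10.14 and 10.26 in control and at 10.37, 10.32 and 10.21 in PyMT/ETP tumours. PyMT/ETP replicates 1 and 2 were above all controls, and PyMT/ETP replicate 3 was within the control range. The log2 difference was 0.098 (SE 0.14), with an interval from -0.22 to 0.42, and the exact permutation p was 0.2. A dimmer probe ran from 6.59 to 6.92 over the 6 tumours, with a difference of 0.064 (SE 0.15).

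Hspb1, the small heat shock protein that holds unfolded clients without using ATP, was at 9.86, 10.11 and 9.71 in control and at 9.51, 9.95 and 10.01 in PyMT/ETP tumours. PyMT/ETP replicate 1 was the lowest of the 6 and control replicate 2 the highest. The log2 difference was -0.069 (SE 0.19), with an interval from -0.49 to 0.35. The other Hspb1 probe lay at background, between 4.26 and 4.47.

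Neither mitochondrial chaperonin gene passed the test. Hspd1 encodes Hsp60, the barrel of the chaperonin. Its brightest probe was at 11.83, 11.80 and 12.11 in control and at 11.98, 12.04 and 11.71 in PyMT/ETP tumours. Control replicate 3 was the highest and PyMT/ETP replicate 3 the lowest, with group means of 11.91 ± 0.17 and 11.91 ± 0.18 (SD, n = 3). The log2 difference was 0.00053 (SE 0.16), with an interval from -0.37 to 0.37, or 0.774-fold to 1.29-fold. The dimmer Hspd1 probe was also highest in control replicate 3, at 8.46 against 7.86 to 8.21 in PyMT/ETP tumours, and gave a difference of -0.15 (SE 0.19). Hspe1, the Hsp10 lid, was at 10.16, 10.36 and 10.49 in control and at 10.46, 10.18 and 10.05 in PyMT/ETP tumours. As for Hspd1, control replicate 3 was the highest and PyMT/ETP replicate 3 the lowest. The log2 difference of Hspe1 was -0.11 (SE 0.17), with an interval from -0.49 to 0.28.

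**Figure D2:**
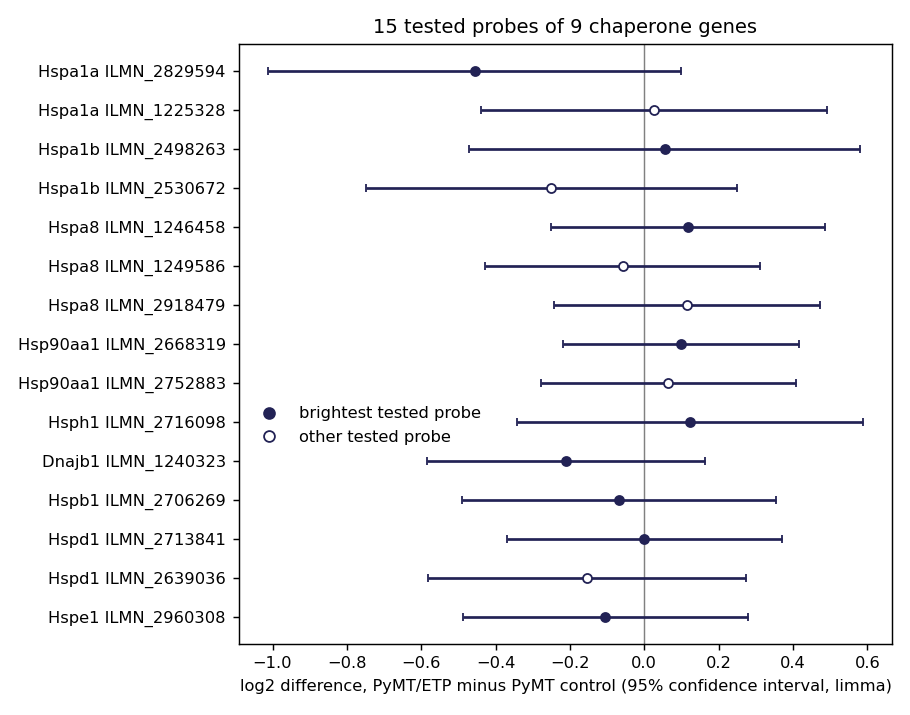
Log2 difference between PyMT/ETP and PyMT control tumours (horizontal axis) of the 15 tested chaperone probes, with 95% confidence intervals from limma; filled points are the brightest tested probe of a gene and open points its other tested probes. All 15 intervals include 0, and those of the brightest Hspa1a and Hspa1b probes are the widest.

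The intervals give the size of change that these arrays leave possible. Over the brightest probes in the fit with 1 probe a gene, the lowest bound was 0.492-fold, for Hspa1a, and the highest 1.51-fold, for Hsph1. The half-width of the interval was 0.39 log2 units for the median gene of the series. A p that misses the threshold does not show that the transcripts were equal between the groups.

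By the brightest probe of each gene, samples within a group varied more in the inducible Hsp70 genes than in Hsp90aa1. The other tested probes of Hspa1a and Hspa1b did not follow the brightest. In control replicate 2 the brighter and dimmer Hspa1a probes deviated from their means by 0.75 and -0.42 log2 units. In control replicate 3 those of Hspa1b deviated by -0.57 and 0.24. The spread of 1 probe may therefore not be that of the transcript. The pooled within-group SD was 0.38 log2 units for Hspa1a, 0.35 for Hspa1b, 0.29 for Hsph1 and 0.24 for Hspb1. It was 0.19 for Hspe1, 0.18 for Dnajb1, 0.17 for Hspd1 and Hspa8, and 0.075 for Hsp90aa1. Because the spread falls with intensity, each gene was set beside the 1000 tested genes nearest to it in mean level. The SD of Hspa1a was at or above that of 92% of those genes and the SD of Hsph1 that of 90.4%. Hspa1b stood at 85.2%, Hspb1 at 82.9%, Hspe1 at 70.3%, Hspa8 at 68.8%, Hspd1 at 68% and Dnajb1 at 67%. Hsp90aa1 stood at 6.6%. These are descriptions of 6 arrays and carry no test.

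**Figure D3:**
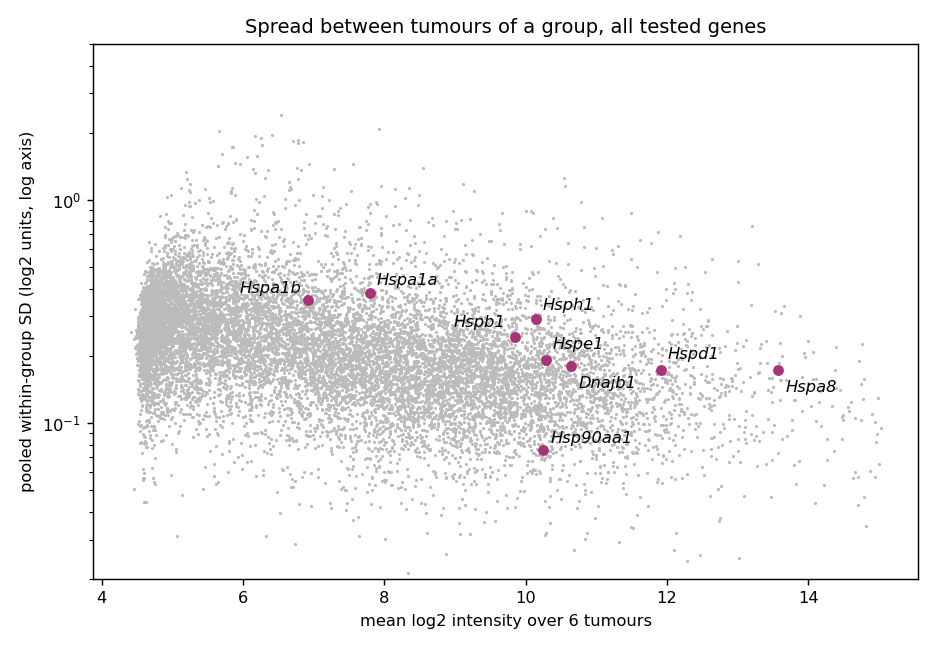
Pooled within-group SD in log2 units (vertical log axis) against mean log2 intensity over the 6 tumours (horizontal axis) of 12860 tested genes in grey, with the 9 chaperone genes marked. Hspa1a at 0.38 lies high among genes of its intensity and Hsp90aa1 at 0.075 lies low.

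No tumour was high or low in all chaperones. The mean deviation of the 9 genes from their own means was 0.066, 0.077 and -0.068 log2 units in PyMT control replicates 1, 2 and 3, and 0.064, 0.024 and -0.16 in PyMT/ETP replicates 1, 2 and 3. PyMT/ETP replicate 3 was the lowest of the 6 tumours for 4 of the 9 genes: Hspa1a, Hsph1, Hspd1 and Hspe1. PyMT control replicates 2 and 3 and PyMT/ETP replicate 1 were each the highest for 3 genes. Leaving out PyMT/ETP replicate 3 took the difference of Hspa1a to -0.33 and that of Hsph1 to 0.33.

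**Figure D4:**
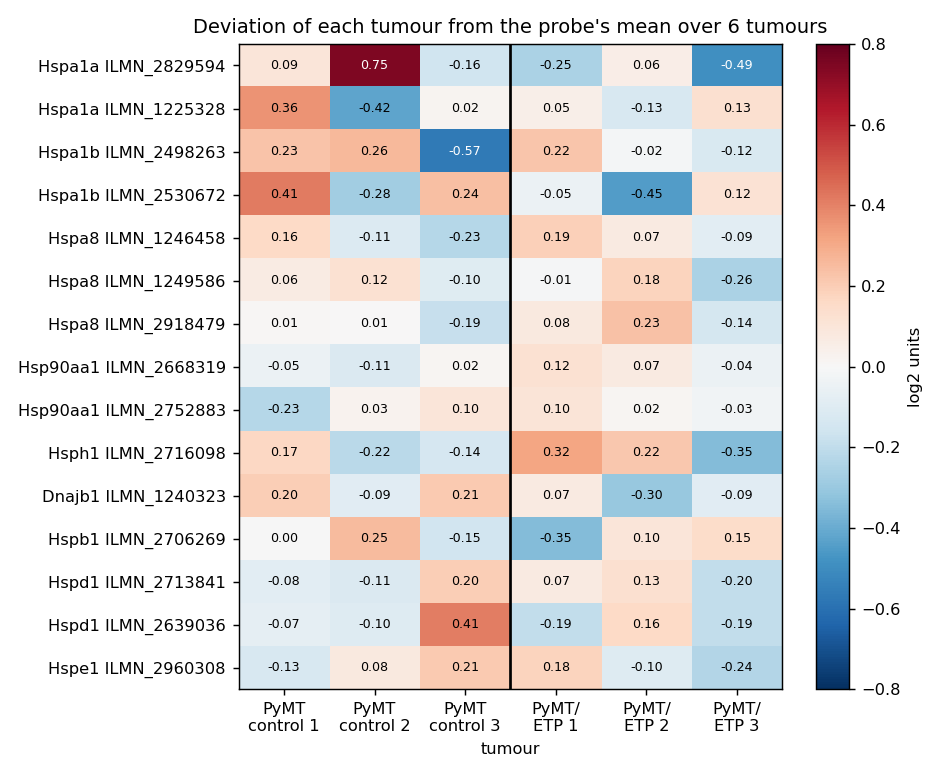
Deviation in log2 units (colour and printed value) of each tumour (columns) from the mean over the 6 tumours, for each of the 15 tested chaperone probes (rows); the black line separates PyMT control from PyMT/ETP. The largest values are 0.75 in PyMT control replicate 2 for the brighter Hspa1a probe and -0.57 in PyMT control replicate 3 for the brighter Hspa1b probe, and neither is shared by the other probe of its gene.

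Likeness of pattern was measured as the root mean square difference between log2 profiles over the 6 tumours, each centred on its own mean. Hspa1a had the largest SD over the 6 tumours, and the genes outside the list nearest to it were Mkx (0.10), Olfr1317 (0.13), Nsd1 (0.13), Inpp5j (0.14) and Fes (0.14). All 5 were highest in PyMT control replicate 2, as Hspa1a was, a likely outcome of choosing them by likeness to it. The first 4 were dim, between 4.37 and 6.30 over the 6 tumours. Among the members, the nearest to Hspa1a was Hspb1, at 0.33, which ranked 1624th among all tested genes. Hspd1 and Hsp90aa1 were each other's nearest member, at 0.10. The nearest member to Hspe1 was Hspd1, with which it shares the printed promoter stretch, at 0.13 and rank 776. For no member was another member closer than rank 234, which Hspa8 held for Hsph1. The measure favours genes that vary little.

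The chaperone network around these genes was described by 9 lists of 87 further genes, of which 75 were tested. By group means 37 were higher and 38 lower in PyMT/ETP tumours, and 0 passed over all genes (lowest adjusted p 0.997 in limma's test). At unadjusted p 0.05 there were 0 of 75. The groups did not overlap for 4 of the 75, or 5.33%, which is no more than the 8.19% of all genes. The median log2 difference of the 75 was -0.0014.

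The 4 genes with separate groups, named only to account for the count, were Hspa4, Cct5, Vbp1 and Hspbp1. Hspa4, an Hsp110 exchange factor of the same family as Hsph1, was at 8.30, 8.10 and 8.05 in control and at 8.46, 8.37 and 8.41 in PyMT/ETP tumours, a log2 difference of 0.26 (SE 0.14) and an unadjusted p of 0.0882 in limma's test. Hspbp1, which releases nucleotide from Hsp70, had a difference of -0.24 (SE 0.14). Cct5, a subunit of the TRiC chaperonin that folds actin and tubulin, had one of 0.19 (SE 0.13), and the prefoldin subunit Vbp1 one of 0.14 (SE 0.13). Vbp1 was outside the rule for named genes and was chosen after its values were seen. None of the 4 passed.

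Other Hsp70 and Hsp110 genes had a median log2 difference of -0.024 (2 higher and 4 lower of 6 tested), with -0.34 (SE 0.17) for the dim Hspa13 and -0.089 for Hspa2, an Hsp70 abundant in testis, whose other probe went the opposite way. Cytosolic J-domain genes had a median of -0.10 (4 higher and 5 lower of 9), with -0.28 for Dnajb5, -0.24 for Dnaja1 and 0.22 for Dnajc5. Dnajb5 and Dnaja1 lay near the background limit of 4.61. Their group means were 4.85 and 4.66 in control and 4.57 and 4.42 in PyMT/ETP tumours. For Hsp70 cofactors the median was 0.0040 (6 higher and 5 lower of 11), and Bag2 had -0.39 (SE 0.25). For Hsp90 co-chaperones it was -0.0052 (6 higher and 9 lower of 15). There Sugt1 had 0.23, Cdc37, which brings kinases to Hsp90, 0.26, and the immunophilin Fkbp4 -0.21. These medians lay close to the 0.0042 of all genes, apart from the J-domain list. The J-domain median was the value of Dnaja2 by its brightest probe, and its other tested probe pointed the other way.

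TRiC and prefoldin genes had a median of 0.014 (8 higher and 5 lower of 13), with 0.24 for the dim Pfdn1 and -0.19 for Pfdn2. The other mitochondrial chaperones and proteases had 0.026 (8 higher and 5 lower of 13), with 0.22 for the matrix protease Lonp1, 0.23 for the J-protein Hscb and -0.26 for the exchange factor Grpel2. Of the heat shock factors and their regulators, 3 were tested and no probe carried the name of Hsf1. Hsbp1, a binding partner of HSF1, was 0.23 higher on the log2 scale (SE 0.14) by its brightest probe, while the second probe pointed the other way. Hsf4 had 0.21 and Hsf2 had -0.049, and the 2 Hsf2 probes also opposed each other. Other known targets of HSF1 had a median of 0.0064 (7 higher and 7 lower of 14).

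The small heat shock proteins other than Hspb1 were all lower by group means, 4 of 4 tested, with a median log2 difference of -0.33, and none passed. Hspb8, which works with Bag3 in selective autophagy, was at 9.63, 9.93 and 10.68 in control and at 9.98, 9.44 and 9.21 in PyMT/ETP tumours, a difference of -0.54 (SE 0.29). Cryab, the alpha B-crystallin made in muscle and myoepithelium, was at 7.90, 8.13 and 7.41 in control and at 6.90, 6.85 and 8.30 in PyMT/ETP tumours. PyMT/ETP replicate 3 was the highest of all 6, and the difference of -0.46 (SE 0.38) became -0.94 without it. Hspb6 had -0.20 (SE 0.15), and the dim Hspb2, which was outside the rule for named genes and chosen after its values were seen, had -0.15. Beside these, the listed markers of basal and myoepithelial cells were lower by group means for 5 of 7 tested genes, with a mean level of 9.17 to 9.78 in control and 8.77 to 9.41 in PyMT/ETP tumours. Oxtr was above the limit on 0 arrays. Skeletal muscle markers were higher by group means for 6 of 9, at 6.49 to 6.81 in control and 6.52 to 7.28 in PyMT/ETP tumours. PyMT/ETP replicate 1 alone stood high in them. The mean deviation of the muscle list was 0.55, -0.21 and -0.14 in PyMT/ETP replicates 1, 2 and 3. It was -0.24, -0.044 and 0.080 in control replicates 1, 2 and 3. The part of either cell type in these values was not tested.

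**Figure D5:**
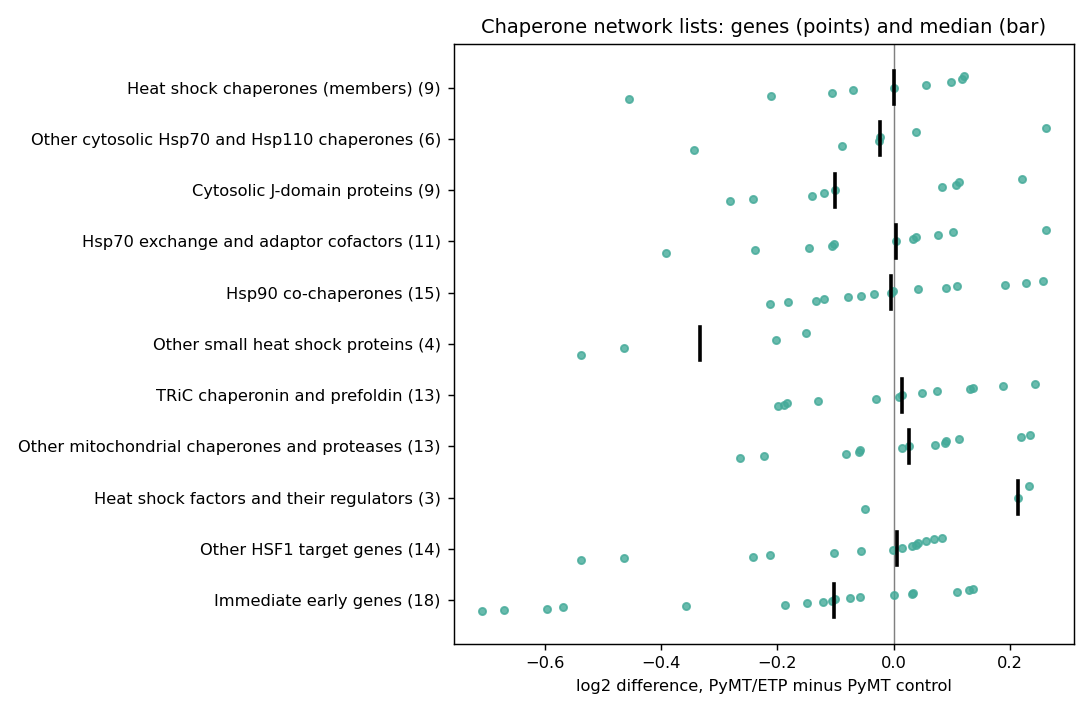
Log2 difference between PyMT/ETP and PyMT control tumours (horizontal axis) of the tested genes of each chaperone network list and of the immediate early genes (points; number tested in brackets), with the list's median as a black bar. The members centre on 0.00053 and the 4 small heat shock proteins all lie below 0, with a median of -0.33; no gene passed.

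Immediate early genes, which like the inducible chaperones answer quickly to stress, had a median log2 difference of -0.10, with 6 higher and 12 lower of 18 tested. Egr2 had -0.71 (SE 0.29), Klf4 -0.67 (SE 0.31) and Atf3 -0.60 (SE 0.28), and none passed over all genes. Only Egr2, 1 of the 18, was under unadjusted p 0.05, at 0.0402 in limma's test, against 4.31% of all genes. The groups overlapped for all 18, while 8.19% of all genes had separate groups. Over the whole list the average deviation of a tumour was -0.051, 0.14 and 0.18 log2 units in PyMT control replicates 1, 2 and 3, and -0.15, -0.16 and 0.044 in the PyMT/ETP tumours. The skin and hair genes were high in the same control replicates 2 and 3, and their part in these values was not tested.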

How the data were processed

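RNA from 6 tumours was labelled as biotin cRNA for Illumina arrays, per the labels' protocols. The deposited values are linear probe intensity values. Their software, background treatment and normalization are not stated in the labels. When sorted, the 6 arrays differed by at most 0.185, with a lowest value of 68.3, which shows quantile-equalised values that keep a background pedestal. A second table, of 24 value columns named only by chip and position, was not used, since no label pairs them with samples; chip position was not tested as a batch.

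Background level (86.1) and SD (4.83) came from the lowest 60% of the pooled deposited intensity values. After normexp correction in limma, 16 was added and log2 taken. Probe symbols came from the platform annotation: 34885 probes had 1 symbol, 18 several and 10378 none, and 34807 were matched to RefSeq. A model with group as the only factor was fitted in limma 3.58.1 under R 4.3.3 (functions lmFit and eBayes), with two-sided p-values, over all 24884 tested probes and over all 12860 tested genes, each by its probe of highest mean, with Benjamini-Hochberg adjustment. The number of arrays limits the precision. The fit was tested on simulated data.

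The members, lists and tests were chosen with earlier results of these data known. The text names all member probes, up to 3 genes of each network list with the smallest unadjusted p, and the 5 genes most like the most variable member. Alternatives changed the background correction, offset, filter, between-array normalization, replicate block, array weights, prior, probe summary and test, and left out each array in turn.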

Additional observations from a re-analysis of the deposited data

How the results depend on the processing

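Under the 16 alternatives run, 0 chaperone genes or probes and 0 network genes passed adjusted p 0.05 in limma's test, and the lowest adjusted p of a chaperone was 0.845. Over all features, 0 to 18 probes and 0 to 16 genes passed with 1 array left out, the highest counts without PyMT control replicate 1, and 0 under the other alternatives. Of 227 alternative values of the chaperone differences, 17 changed sign, and of 387 for named network genes, 5 did. With the mean of all probes, the reversed values were -0.098 for Hspa1b, -0.077 for Hspd1, 0.14 for Hspa2 and 0.10 for Hsf2. With array weights they were -0.014 for the dim Hspa1a probe ILMN_1225328 and 0.065 for Hsf2. With 1 array left out the log2 difference ran from -0.22 to 0.20 for Hspa1b, from -0.0051 to 0.33 for Hsph1, from -0.16 to 0.088 for Hspb1, from -0.064 to 0.10 for Hspd1 and from -0.20 to 0.14 for Hsf2. It ran from -0.18 to 0.21 for Hspa1a probe ILMN_1225328, from -0.16 to 0.056 for Hspa8 probe ILMN_1249586, from -0.032 to 0.13 for Hsp90aa1 probe ILMN_2752883 and from -0.27 to 0.011 for Hspd1 probe ILMN_2639036. The cause of these changes of sign was not tested. Same-numbered deviations from group means correlated at -0.065, -0.059 and -0.11 over 12860 genes, and differently numbered ones at -0.012 to 0.070. The deviations sum to 0 within each group, so these correlations cannot decide whether the replicate numbers pair the tumours. With the replicate number as a block, 0 chaperone probes, 0 chaperone genes, 0 network genes and 0 probes or genes in all passed, and for Hspa1a limma gave an unadjusted p of 0.0271 and 0.998 after adjustment. Probes near the background limit carry understated differences.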
